A study of Mus musculus with 4 samples.

Results

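The 31 genes described here encode enzymes of cholesterol and fatty acid synthesis and the proteins that sense and carry sterols. They were chosen by symbol for their place in these pathways, and each of the 31 was found once among the 27998 genes of the files. By role, 7 act in the mevalonate pathway, 11 between squalene and cholesterol, 5 in sterol sensing and transport, and 8 in fatty acid synthesis, elongation and desaturation.

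Cholesterol is built from acetyl-CoA through mevalonate, isoprenoid units and squalene, and fatty acids are built from the same acetyl-CoA by carboxylation, elongation and desaturation. Both branches are switched on by the SREBP transcription factors, which the INSIG proteins hold in the endoplasmic reticulum when sterols are plentiful. Sterol excess in turn activates the LXR receptors, which raise genes of cholesterol efflux and SREBP-1c, and macrophages are known for strong LXR programs while dividing lymphocytes are known to need new membrane lipid.

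Droplet-based single-cell RNA libraries from mouse were counted as unique molecular identifiers (UMIs), with a single library for every group. The groups are called IgG, Ac, C or aC+C, names that are nowhere spelled out. The labels give an age of 6 to 8 weeks for every sample in a field headed genotype, and state neither the number of animals nor the tumor, the treatment agents or times. The titles speak of immune cells in tumors, the series title of CD8+ T cells, whereas the protocol and the field for cell type concern goblet cells sorted by mCherry from RedMUC298trTg mice. The epithelial and goblet markers Epcam, Muc2, Tff3, Fcgbp and Spink4 together reached at most 0.23 UMIs per 10000 in any gate described below, so the goblet label is not borne out by the values. With 1 library per group, a difference between libraries has no replicate check, and treatment, animal and capture cannot be told apart.

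Barcodes with at least 1000 UMIs and at most 10% mitochondrial UMIs numbered 3436, 4028, 4210 and 4081, with medians of 10492 to 11594.5 UMIs. The 4 libraries are listed throughout in the order IgG, Ac, C, aC+C. Between 2 and 7 barcode sequences were shared by any pair of libraries. Barcodes were assigned to gates by UMIs of marker genes, none of which is among the 31: T by Cd3d, Cd3e and Cd3g, NK by Ncr1 and killer-cell receptors, macrophage by genes such as Csf1r, Adgre1 and C1qa, dendritic by genes such as Flt3, Xcr1 and Ccr7, and mesenchymal stromal by collagens, Dcn and Pdgfra with low Ptprc. Stromal barcodes rich in Hmga2, Tm4sf1 and Prrx2 were called tumor-like, and those poor in them stromal. T barcodes were split at 10 UMIs of 14 proliferation genes per 10000. The gates held 1240 to 1583 non-cycling T barcodes per library, 243 to 333 cycling T, 237 to 579 NK, 471 to 1316 macrophage, 77 to 120 dendritic, 32 to 63 stromal and 102 to 351 tumor-like ones, and 340 to 698 barcodes per library fell in no gate. Markers fell where the names place them: T markers stood at 29.4 to 38.4 UMIs per 10000 in non-cycling T, NK markers at 24.2 to 27.1 in NK, macrophage markers at 113 to 135 in macrophages and dendritic markers at 33.5 to 43.1 in dendritic barcodes. Among T barcodes, Cd8a or Cd8b1 was seen in 86.0% to 91.5% of cycling and 50.8% to 65.2% of non-cycling ones.

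UMIs were summed per gate and library and scaled to UMIs per 1000000 (CPM), and levels below are CPM of such sums. Summed over the 31 genes, the tumor-like gate stood highest in every library, at 1218, 1541, 1276 and 895 CPM. Dendritic barcodes held 953, 1026, 987 and 798 CPM. NK barcodes were lowest in each library, at 501, 551, 569 and 537 CPM. Non-cycling T barcodes held 592, 617, 602 and 547 CPM, and cycling T barcodes held more in each library, at 701, 743, 706 and 644 CPM. Macrophages held 727, 873, 831 and 685 CPM and stromal barcodes 866, 925, 1074 and 654 CPM. In 6 of 7 gates the aC+C library was the lowest of the 4, and in NK it was IgG. Barcodes of 1 to 50 UMIs, which mostly catch free RNA, held 670, 833, 762 and 769 CPM of the same genes, above the non-cycling T and NK gates of every library.

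**Figure D1:**
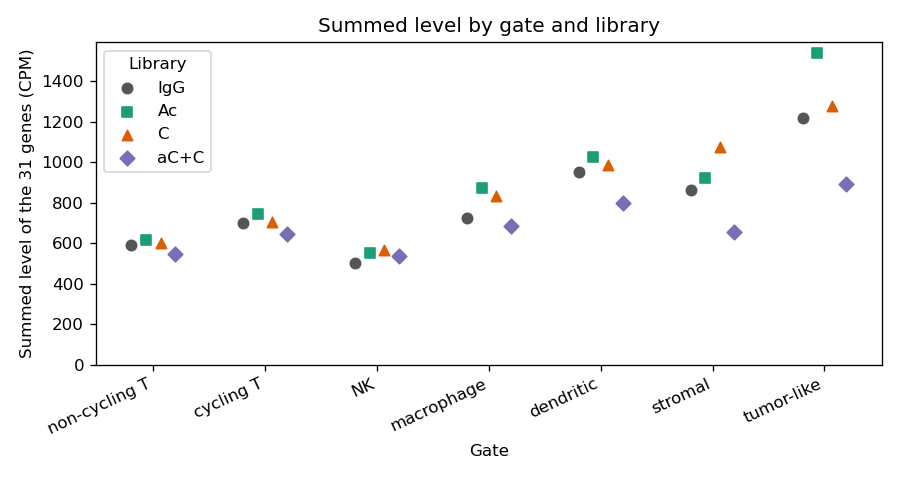
Summed CPM of the 31 genes (vertical axis, from 0) in 7 gates (horizontal axis), 1 point per library. Tumor-like barcodes range from 895 CPM in aC+C to 1541 CPM in Ac, and NK barcodes from 501 to 569 CPM.

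The genes did not share a single order of gates. Of the mevalonate genes, Acat2, Hmgcs1, Mvk and Fdps had their highest mean level in tumor-like barcodes, Pmvk and Idi1 in dendritic barcodes, and Mvd in macrophages. Of the squalene-to-cholesterol genes, Fdft1, Sqle, Lss, Cyp51, Msmo1 and Hsd17b7 were highest in tumor-like barcodes, Ebp, Sc5d and Dhcr7 in cycling T, and Tm7sf2 and Nsdhl in dendritic barcodes. Of the sensing and transport genes, the sterol sensor Insig1 was highest in macrophages, Insig2 and Srebf1 in stromal barcodes, Srebf2 in dendritic barcodes and the sterol carrier Stard4 in cycling T. Of the fatty acid genes, Acly and Fads1 were highest in macrophages, Acaca, Fasn, Scd2 and Fads2 in tumor-like barcodes, Elovl6 in NK, and Scd1 in stromal barcodes. For 23 of the 31 genes the libraries of the highest gate overlapped in range with those of the next, and for 8 they did not: Acat2, Pmvk, Msmo1, Ebp, Insig1, Srebf2, Stard4 and Acly. The first place was close for Scd2, with means of 144 CPM in tumor-like and 142.9 CPM in stromal barcodes and tumor-like above in 1 of 4 libraries. Counts come from the 3' end of transcripts and are not scaled by length, so levels are compared within a gene and not between genes.

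Across the 28 sums of 7 gates and 4 libraries, the members whose levels ranked most alike were Idi1 and Cyp51 (Spearman 0.92), Fdps and Sqle (0.91), Idi1 and Sqle (0.91) and Sqle and Cyp51 (0.89). The least alike pair was Ebp and Scd1, at -0.71. These are descriptions, since the sums share libraries and gates.

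Promoter windows from RefSeq (GRCm38.p6, 250 bases before to 50 after a start) were matched for 24 of the 31 genes. The CCAAT box, searched as CCAAT on both strands, is the motif of the factor NF-Y, a known partner of SREBP, and was present in the windows of 20 of the 24 genes (83.3%), against 41.1% of all 27025 genes with a window. The sterol regulatory element in the form TCACNCCAC was found in 1 of the 24, Hmgcs1, against 1.44% of all genes, and the E-box CACGTG in 4 (16.7%), against 8.09%. A match to these letters is a description of the window and not of binding, and CCAAT does not overlap the other motifs in the sequences shown. The 150 bases before the start of Hmgcs1 (HMG-CoA synthase, chr13:119690201-119690350, plus strand), Idi1 (isopentenyl-diphosphate isomerase, chr13:8885456-8885605, plus strand) and Cyp51 (lanosterol demethylase, chr5:4104698-4104847, minus strand) are shown because Idi1 and Cyp51 ranked most alike and Hmgcs1 alone carried the sterol element. Capitals mark CCAAT, or ATTGG where it lies on the other strand, and the sterol element of Hmgcs1.
Hmgcs1: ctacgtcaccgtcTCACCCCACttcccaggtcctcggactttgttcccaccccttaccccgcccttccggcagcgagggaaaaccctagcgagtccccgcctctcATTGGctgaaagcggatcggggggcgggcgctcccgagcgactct
Idi1: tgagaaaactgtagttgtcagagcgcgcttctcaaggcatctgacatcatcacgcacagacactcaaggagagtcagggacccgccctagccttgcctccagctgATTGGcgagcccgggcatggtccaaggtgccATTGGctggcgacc
Cyp51: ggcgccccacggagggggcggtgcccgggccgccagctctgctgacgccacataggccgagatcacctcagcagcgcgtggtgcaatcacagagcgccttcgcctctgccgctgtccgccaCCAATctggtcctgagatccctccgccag
In these sequences the CCAAT letters lay 45 bases before the start in Hmgcs1, 45 and 14 bases before it in Idi1 and 29 bases before it in Cyp51, while the sterol element of Hmgcs1 lay 137 bases before its start.

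The first comparison set cycling against non-cycling T barcodes within the same libraries. Genes of isoprenoid and sterol synthesis were higher in cycling T barcodes, with 10 of the 18 enzymes from Acat2 to Dhcr7 past the test and 1 lower, and the fold changes were modest. Over all 31 genes, 30 could be tested, 15 rose and 3 fell (edgeR quasi-likelihood test with library as a block, Benjamini-Hochberg adjusted p under 0.05 over 11067 genes). The median log2 fold change was 0.26 over these members and -0.02 over all genes. The test called 26.3% of all genes higher and 25.8% lower, so the members were more often higher and less often lower than all genes were, a difference that was not tested.

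Idi1, which makes the allylic isoprenoid unit, stood at 20.9, 22.4, 22 and 18.5 CPM in non-cycling T barcodes. In cycling T barcodes it stood at 32.6, 36.0, 31.2 and 30.1 CPM. The ranges did not overlap, and the log2 fold change was 0.67 ± 0.07 (SE, n = 4 libraries, edgeR adjusted p = 2.4e-06). Fdps, farnesyl diphosphate synthase, rose from 16.9, 20.2, 25.3 and 19.95 CPM to 25.4, 32.7, 36.9 and 32.4 CPM, a log2 fold change of 0.66 ± 0.07 (edgeR adjusted p = 2.6e-06). The highest non-cycling value, 25.3 CPM in C, nearly touched the lowest cycling one, 25.4 CPM in IgG, but each library rose on its own. Downstream, Fdft1 (squalene synthase), Sqle (squalene epoxidase) and Cyp51 rose by log2 fold changes of 0.58 ± 0.09, 0.54 ± 0.10 and 0.53 ± 0.07. Hmgcs1, which makes HMG-CoA, rose by 0.36 ± 0.08 and mevalonate kinase, Mvk, by 0.47 ± 0.13.

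Stard4, a soluble sterol carrier, went from 28.4, 29.0, 29.0 and 23.6 CPM to 42.2, 45.6, 39.0 and 37.4 CPM, with every cycling value above every non-cycling one (log2 fold change 0.62 ± 0.07, edgeR adjusted p = 3.8e-06). Among desaturases, Fads1 rose by 0.83 ± 0.20 from levels of 2.32 to 3.43 CPM, and Scd2 by 0.40 ± 0.07. Mvd, mevalonate diphosphate decarboxylase, went against its neighbours in the pathway: it stood at 5.93, 7.23, 9.23 and 5.89 CPM in non-cycling and 4.94, 3.97, 6.15 and 4.21 CPM in cycling T barcodes (log2 fold change -0.51 ± 0.15, edgeR adjusted p = 0.012). The ranges overlapped, but each library was lower on its own. The elongase Elovl6 (-0.53 ± 0.12) and the sensor Insig2 (-0.26 ± 0.07) also fell. Srebf1 and Srebf2, which encode the SREBP factors, had log2 fold changes of 0.12 ± 0.08 and 0.00 ± 0.08 and did not pass the test.

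Among related genes outside the 31, 12 genes of sterol efflux, esterification and egress, 12 other synthesis genes and 10 genes of uptake and storage were followed. In cycling T barcodes, 4 of 9 tested efflux and egress genes fell and 1 rose, led by Mylip (-0.90 ± 0.11), the LXR target that degrades lipoprotein receptors, and by the cholesterol exporters Abcg1 (-0.75 ± 0.07) and Abca1 (-0.75 ± 0.23). Of the uptake and storage genes, 1 rose, Fabp5 (0.55 ± 0.07), and 2 of 6 fell. Of the other synthesis genes, 2 of 11 rose and 1 fell, Acss2 (-0.88 ± 0.17), which makes acetyl-CoA from acetate.

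Between 137 and 191 T barcodes per library lay near the proliferation threshold, at 5 to 20 UMIs per 10000. Cycling T barcodes held medians of 20347 to 21599 UMIs and non-cycling ones 6886 to 8808.5. When every barcode was thinned to 1000 UMIs, 18 members remained testable, 5 rose (Ebp, Fdps, Idi1, Sqle and Stard4) and none fell, with 16% of all genes called higher and 14% lower. Among CD8 T barcodes alone, 14 of 28 members rose and none fell (23% and 21.9% of all genes). Mvk lost its call without aC+C (edgeR adjusted p = 0.062), Mvd without Ac or C, and Acaca and Acly without IgG, Ac or C. The share of cycling T barcodes positive for Cd8a or Cd8b1 was larger than that of non-cycling ones, as given above. In NK barcodes split the same way, a comparison added after the data were seen, 7 of 22 tested members rose and none fell (16.1% and 12.6% of all genes were called). Those 7 were Hmgcs1, Idi1, Fdps, Cyp51, Ebp, Sc5d and Stard4, with log2 fold changes from 0.34 ± 0.11 for Ebp to 0.80 ± 0.18 for Fdps. Cycling NK barcodes numbered 55, 28, 55 and 22. The tumor markers Hmga2, Tm4sf1 and Prrx2 summed in them to 0, 0.0125, 0.0647 and 2.74 UMIs per 10000. The part of these markers' cells in the rises was not tested.

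**Figure D2:**
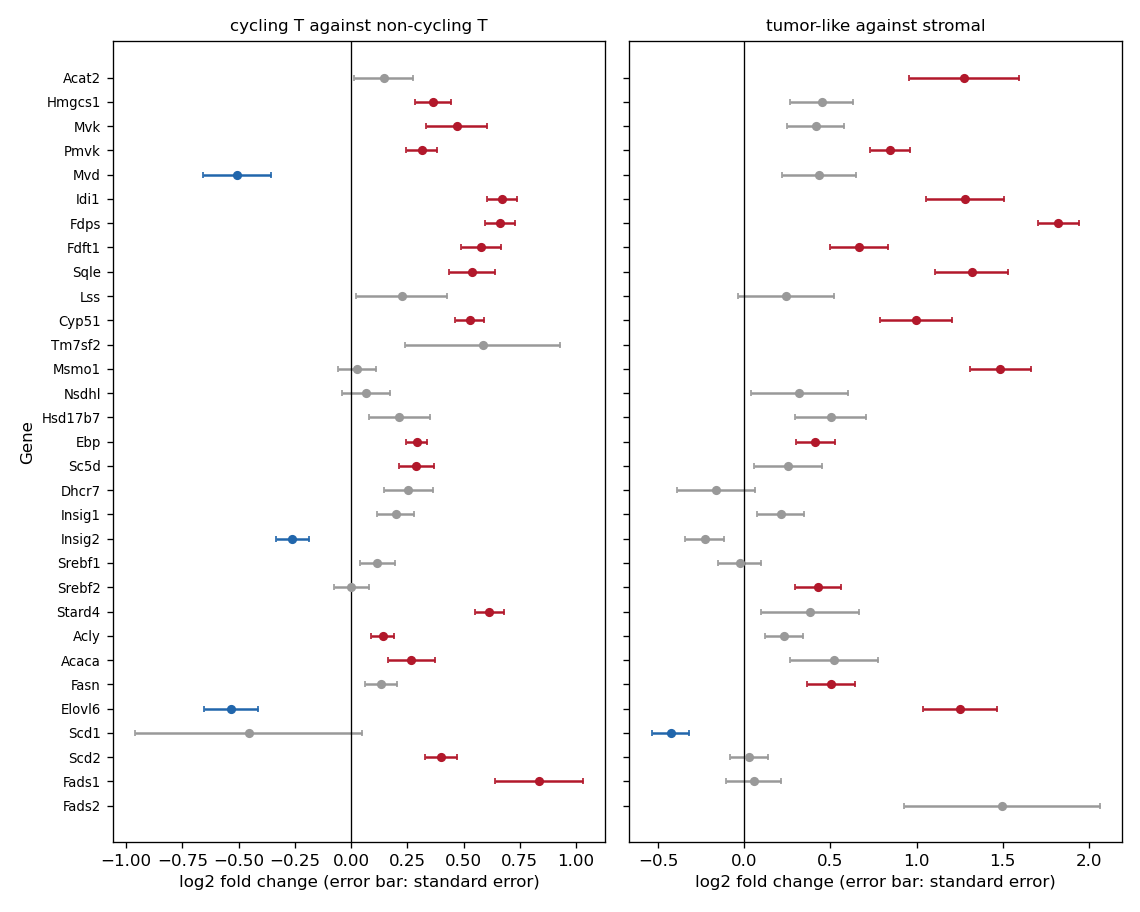
Log2 fold change (horizontal axis) with its standard error for each gene (vertical axis) in cycling against non-cycling T (left) and tumor-like against stromal barcodes (right). Red points rose and blue points fell at an edgeR adjusted p under 0.05, and grey points did not pass. On the left 15 points are red and 3 blue, and on the right 12 are red and 1 blue.

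NK barcodes differed from non-cycling T barcodes in both directions. The fatty acid genes Scd2 and Elovl6 were higher in NK, and several genes between squalene and cholesterol were lower. Of 28 tested members, 5 rose and 7 fell, while 24.4% of all genes were called higher and 23.2% lower, so the members' shares lay near those of all genes. Scd2, a stearoyl-CoA desaturase, stood at 65.3, 67.5, 65.6 and 46.8 CPM in NK barcodes and at 37.2, 38.3, 35.3 and 25.1 CPM in non-cycling T. Each NK value exceeded every T value (log2 fold change 1.03 ± 0.06, n = 4 libraries, edgeR adjusted p = 6.5e-08). Elovl6, which extends palmitate, stood at 17.9, 16.1, 16.7 and 17.5 CPM against 10.7, 10.3, 10.9 and 8.26 CPM, again without overlap (0.92 ± 0.11).

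Of the tested members, Sqle was the lowest in NK relative to T, at 2.93, 2.36, 3.71 and 3.03 CPM against 7.65, 9.13, 9.15 and 8.35 CPM (log2 fold change -1.33 ± 0.18, edgeR adjusted p = 6e-05). These groups did not overlap. Fdft1 (-0.52 ± 0.14), Cyp51 (-0.37 ± 0.11), Hsd17b7 (-0.76 ± 0.17), Insig1 (-0.51 ± 0.11), Insig2 (-0.59 ± 0.09) and Acat2 (-0.49 ± 0.16) also fell, and Fdps (0.30 ± 0.09), Srebf1 (0.31 ± 0.09) and Fasn (0.31 ± 0.10) rose. The T barcodes here were all non-cycling, whereas 55, 28, 55 and 22 of the 498, 468, 579 and 237 NK barcodes were cycling. Fdps was among the members higher in cycling NK barcodes, as given above, and Srebf1 and Fasn were not. The part of cycling NK barcodes in the differences between NK and T was not tested. With single libraries left out, 4 members rose and 4 fell without IgG, 3 and 5 without Ac, 3 and 10 without C, and 3 and 6 without aC+C. These fits called 38.9%, 39.3%, 41.3% and 45.7% of all genes higher or lower, against 47.6% with all 4 libraries. The calls lost were those of Cyp51 (without IgG or Ac), Fdft1 (without IgG), Acat2 (without IgG, Ac or aC+C), Fdps (without IgG, Ac or C), Srebf1 (without C or aC+C) and Fasn (without Ac or aC+C). After thinning, only Scd2 rose and only Insig2 fell of 20 testable members (12.6% of all genes in each direction). Among related genes, the storage and uptake genes Pparg (-3.27 ± 0.51) and Fabp5 (-2.45 ± 0.09) were lower in NK, and the efflux gene Abca1 (1.22 ± 0.18) was higher, with 4 of 9 efflux and egress genes higher and 3 lower.

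In macrophages, most of the mevalonate pathway stood above non-cycling T barcodes, and so did the desaturases Fads1 and Scd2, the citrate lyase Acly and the sensor Insig1. Of 30 tested members, 15 rose and 6 fell. The test called 36.6% of all genes higher and 37.6% lower, and the median log2 fold change was 0.29 over members and -0.02 over all genes. In the mevalonate pathway 6 of 7 genes rose and 1, Acat2, fell.

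Fads1, the delta-5 desaturase of polyunsaturated fatty acids, stood at 25.9, 29.8, 30.2 and 20.8 CPM in macrophages. In non-cycling T barcodes it stood at 3.43, 2.32, 2.94 and 2.81 CPM, so no values overlapped, and the log2 fold change was 3.32 ± 0.15 (n = 4 libraries, edgeR adjusted p = 7.2e-08). Insig1 stood at 47.0, 56.9, 40.6 and 39.3 CPM against 17.7, 18.5, 16.9 and 14 CPM, also without overlap (1.55 ± 0.08, edgeR adjusted p = 2.3e-07). Acly, which cleaves citrate into the acetyl-CoA used by both branches, stood at 109, 111, 107 and 104 CPM against 64.7, 57.4, 64.1 and 51.0 CPM (0.97 ± 0.07). Mvd rose by 1.40 ± 0.11, phosphomevalonate kinase, Pmvk, by 1.19 ± 0.08, the sterol reductase Tm7sf2 by 2.00 ± 0.23 and the sterol demethylase Msmo1 by 1.01 ± 0.09.

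Fatty acid synthase, Fasn, ran the other way, at 7.90, 12.8, 12.3 and 8.36 CPM in macrophages against 25.6, 20.6, 26.5 and 22.2 CPM in T barcodes (-1.07 ± 0.15, edgeR adjusted p = 0.00013). The groups did not overlap. Elovl6 (-1.09 ± 0.16), Stard4 (-0.89 ± 0.12), Acat2 (-0.61 ± 0.18), Sc5d (-0.47 ± 0.12) and Hsd17b7 (-0.45 ± 0.17) also fell. The calls of Idi1, Sqle, Hsd17b7 and Acat2 were lost without at least 1 library each, Idi1 without IgG, Ac or C, Sqle without Ac or C, Hsd17b7 without IgG, Ac or aC+C, and Acat2 without aC+C. Of the related genes, 11 of 12 efflux and egress genes rose and none fell, led by Ch25h (6.86 ± 0.32), which makes 25-hydroxycholesterol, Abca1 (6.12 ± 0.20) and Nr1h3 (5.61 ± 0.27), which encodes LXR-alpha. Lpl (5.57 ± 0.20) and Cd36 (4.20 ± 0.20) led 6 uptake and storage genes that rose, and 1 of 9 fell.

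Dendritic barcodes, compared with macrophages, had much more Pmvk, Idi1, Fdps, Scd1 and Srebf2 and less Fads1, Acly and Insig1. Of 29 tested members, 9 rose and 6 fell, and 22.9% of all genes were called higher and 24.5% lower. Pmvk, the kinase between mevalonate and isoprenoid units, stood at 186, 214, 153 and 222 CPM in dendritic barcodes. In macrophages it stood at 54.1, 68.1, 65.7 and 60.7 CPM, far from overlapping (log2 fold change 1.69 ± 0.12, n = 4 libraries, edgeR adjusted p = 6.8e-08). With every barcode thinned to 1000 UMIs, 14.2% to 15.3% of dendritic barcodes held a Pmvk UMI (59.7% to 78.3% unthinned), against 4.64% to 6.54% of macrophages (38.2% to 46.8%) and 1.07% to 2.76% of NK barcodes (22.8% to 25%).

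Idi1 stood at 80.8, 71.6, 75.3 and 32.0 CPM in dendritic barcodes against 24.1, 27.4, 26.1 and 17.8 CPM in macrophages (1.46 ± 0.14, edgeR adjusted p = 2.1e-06). The dendritic barcodes of aC+C were the low ones but remained above every macrophage value. Srebf2, the master factor of the sterol branch, stood at 82.6, 82.1, 65.9 and 64.1 CPM against 41.3, 41.0, 36.7 and 29.9 CPM (1.04 ± 0.11). Fdps rose by 1.39 ± 0.11 and Fasn by 1.08 ± 0.22. Scd1, a desaturase that makes oleate, stood at 11, 16.3, 14.1 and 32.0 CPM against 0.79, 1.25, 2.23 and 1.73 CPM (3.65 ± 0.33), and barcodes of 1 to 50 UMIs held 7.16, 13.8, 12.8 and 22.3 CPM of it.

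Fads1 was lower in dendritic barcodes (-1.48 ± 0.28), as were Acly (-0.97 ± 0.13), Insig1 (-0.82 ± 0.21), Ebp (-0.59 ± 0.11), Srebf1 (-0.57 ± 0.17) and Scd2 (-0.50 ± 0.15). Without Ac, 3 members fell in place of 6, since Insig1, Srebf1 and Scd2 lost their calls, and Fdft1 lost its rise without IgG, Ac or C. The fit without Ac called 38.2% of all genes higher or lower, against 47.4% with all libraries. After thinning, 3 of 8 testable members rose and 2 fell (16.8% and 20.5% of all genes). Of the related efflux and egress genes, 9 of 12 were lower in dendritic barcodes and 1 higher, led by Nr1h3 (-4.58 ± 0.49) and Abca1 (-4.54 ± 0.18).

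Stromal barcodes differed from macrophages most in Scd1. It stood at 76.5, 72.6, 77.7 and 60.7 CPM in stromal barcodes and at 0.79 to 2.23 CPM in macrophages (log2 fold change 5.17 ± 0.22, n = 4 libraries, edgeR adjusted p = 1.2e-07). The lymphocyte gates held at most 1.66 CPM, below the 7.16 to 22.3 CPM of barcodes with 1 to 50 UMIs. Fasn rose by 1.75 ± 0.20, Insig2 by 0.95 ± 0.13 and Scd2 by 0.75 ± 0.11, and Insig1 fell by 1.44, Mvd by 1.31, Pmvk by 1.18, Acly by 1.16 and Ebp by 1.02 on the log2 scale. In all, 6 of 30 members rose and 8 fell, below the 32.4% and 33.7% of all genes called higher and lower. Calls were lost for Hsd17b7 without IgG, C or aC+C, for Lss and Cyp51 without Ac or aC+C, and for Tm7sf2 without IgG, Ac or aC+C. After thinning 1 of 7 testable members rose, Scd1, and 1 fell, Pmvk (16.5% and 25.5% of all genes). Stromal barcodes carried 4.34 to 13.4 UMIs of macrophage markers per 10000, and the part of these in the comparison was not tested.

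Scd1 and Scd2 are close paralogs, and how reads that fit both were counted was not examined. Gene models of GENCODE M21 overlap Fdps (Gm43738), Tm7sf2 (Vps51) and Scd2 (a microRNA gene) on the same strand and 6 further members on the opposite strand, among them Fdft1 (Ctsb) and Cyp51 (Akap9). The strand setting of the counting is not given in the sources used here, and the levels of these genes are uncertain to that extent.

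Taken whole, tumor-like barcodes, of which more were cycling, had more of the enzymes that lead from acetyl-CoA to sterols than stromal barcodes did. Fdps, Msmo1, Sqle, Idi1 and Acat2 rose by more than 1 on the log2 scale. Of 30 tested members, 12 rose and 1 fell, Scd1, while 22.2% of all genes were called higher and 20.1% lower. The median log2 fold change was 0.43 over members and -0.03 over all genes.

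Fdps stood at 136, 210, 171 and 98.4 CPM in tumor-like barcodes and at 35.5, 59.0, 64.5 and 23.3 CPM in stromal ones. The ranges did not overlap (log2 fold change 1.82 ± 0.12, n = 4 libraries, edgeR adjusted p = 5.5e-06). Msmo1, which removes methyl groups from lanosterol products, stood at 85.4, 127, 82.6 and 64.6 CPM against 38.8, 33.6, 44.2 and 15.6 CPM, also without overlap (1.49 ± 0.18, edgeR adjusted p = 0.00014). Idi1 stood at 54.4, 65.7, 51.2 and 30.3 CPM against 23.3, 26.3, 33.0 and 3.89 CPM (1.28 ± 0.23), and here the tumor-like value of aC+C lay below the stromal value of C. Sqle rose by 1.32 ± 0.21, Acat2, the thiolase that opens the pathway, by 1.28 ± 0.32, Elovl6 by 1.25 ± 0.21, Cyp51 by 1.00 ± 0.21, Pmvk by 0.85 ± 0.12 and Fdft1 by 0.67 ± 0.17. Ebp (0.41 ± 0.11), Fasn (0.50 ± 0.14) and Srebf2 (0.43 ± 0.13) rose less, and Scd1 fell by 0.43 ± 0.11.

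Between 53.9% and 57.9% of tumor-like barcodes were cycling, against 2.27% to 11.8% of stromal ones, and their median UMIs were 56488 to 67228 against 28554.5 to 32637.5. Among non-cycling barcodes of both gates, a comparison added after the data were seen, 4 of 29 members rose and none fell, with 12.8% of all genes called higher and 10.7% lower. Those 4 were Fdps (1.23 ± 0.13), Idi1 (0.98 ± 0.29), Msmo1 (0.97 ± 0.20) and Sqle (0.88 ± 0.25). The share of members higher among non-cycling barcodes, 13.8%, lay near the 12.8% of all genes. The median log2 fold change there was 0.25 over members and -0.03 over all genes. After thinning to 1000 UMIs only 1 member could be tested, and it did not pass (11.9% of all genes were called higher and 13.6% lower). Scd1 lost its call without C (edgeR adjusted p = 0.062), Ebp without aC+C, Fasn without Ac or aC+C, and Srebf2 without Ac or C. Of the related genes, 6 of 10 efflux and egress genes were lower in tumor-like barcodes and none higher, led by Nr1h3 (-2.71 ± 0.42) and Mylip (-1.55 ± 0.13), and the lipoprotein receptor Scarb1 (0.80 ± 0.14) was higher. All 9 macrophage markers were detected in both gates, summing to 4.34, 9.45, 13.4 and 7.71 UMIs per 10000 in stromal and 2.37, 4.75, 6.94 and 4.27 in tumor-like barcodes, and their part in the lower efflux genes was not tested.

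**Figure D3:**
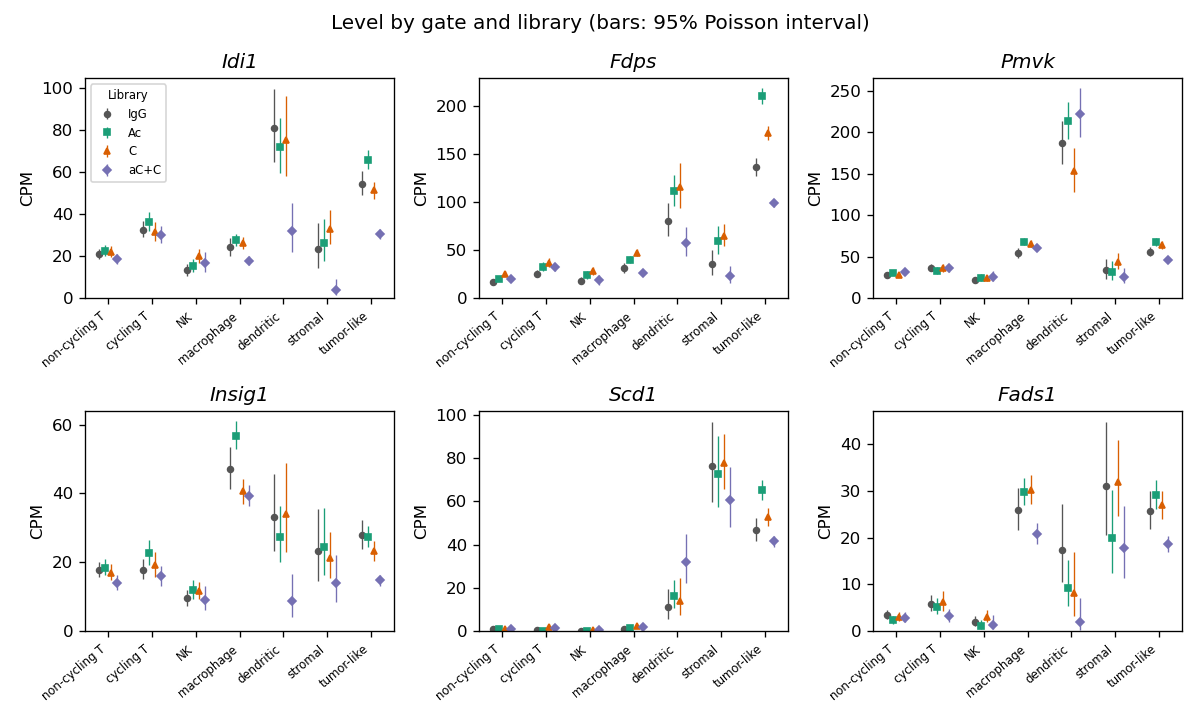
Level (CPM, vertical axes from 0) of 6 genes in 7 gates (horizontal axes), 1 point per library with its 95% Poisson interval for counting error. Pmvk is highest in dendritic, Fdps in tumor-like and Scd1 in stromal barcodes, and Idi1 in the aC+C library is below the other libraries in dendritic, stromal and tumor-like barcodes.

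The libraries were then compared within each gate, as ratios of CPM with 95% intervals that cover counting error only. A gene was counted as higher or lower at a ratio of 1.5 or more in either direction, provided that both libraries together held 100 UMIs of it or more. Ac, C and aC+C were each set against the same IgG library, and aC+C also against Ac and C, so these ratios share libraries.

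The clearest differences were in tumor-like barcodes of aC+C. Against IgG, 10 of 29 members were at least 1.5 times lower and none higher (4.96% and 2.38% of all genes). Of the 29 ratios, 28 lay below 1 and 1 above it, where 36.8% of all genes lay above it. The median ratio was 0.722, against 0.948 over all genes. Against Ac, 22 of 30 members were lower and none higher with a median of 0.609 (2.81% and 1.97% of all genes), and against C, 12 of 30 were lower and none higher with a median of 0.690 (6.19% and 1.69% of all genes). Hmgcs1 stood at 59.0, 73.9, 54.8 and 34.0 CPM, for a ratio to IgG of 0.577 (95% interval 0.509 to 0.654). Cyp51 stood at 59.5, 66.6, 50.2 and 33.6 CPM (0.565, 0.499 to 0.641) and Insig1 at 27.8, 27.4, 23.1 and 14.7 CPM (0.528, 0.438 to 0.637). In each of these 3 genes aC+C was the lowest library by a margin beyond counting error.

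Scd2, at 136, 200, 150 and 90.0 CPM, had a ratio of 0.663 to IgG (0.612 to 0.719) and of 0.450 to Ac (0.424 to 0.477). Idi1 was at 0.556 times IgG (0.488 to 0.635), Elovl6 at 0.558, Lss at 0.591, Fdft1 at 0.626, Stard4 at 0.643 and Acat2 at 0.658. Ebp, the sterol isomerase, was the 1 member not below 1, at 1.10 times IgG (0.986 to 1.23), 1.16 times Ac and 1.02 times C. Of the other synthesis genes, none of 11 was 1.5 times lower than in IgG, with a median ratio of 0.928, and of 8 efflux and egress genes Mylip was lower at 0.625 and Abca1 higher at 1.68. The share of cycling barcodes in the gate was 53.9%, 57.9%, 56.8% and 56.1%.

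When cycling and non-cycling tumor-like barcodes were taken apart, a split added after the data were seen, 16 of 29 members were lower than in IgG among cycling barcodes (median 0.655, 4.67% of all genes lower) and 0 of 23 among non-cycling ones (median 0.916, 6.81% of all genes lower). Fdps was at 0.655 times IgG (0.600 to 0.715) in cycling and at 1.08 times (0.897 to 1.32) in non-cycling tumor-like barcodes. Against Ac the lower members numbered 24 of 30 and 14 of 24 (2.93% and 4.02% of all genes), and against C 13 of 29 and 10 of 24 (5.62% and 5.49%). The difference between cycling and non-cycling barcodes was not tested. The IgG library held 47 non-cycling tumor-like barcodes. Stromal markers stood in non-cycling tumor-like barcodes at 81.5, 50.1, 52.8 and 39.8 UMIs per 10000, and tumor markers at 10.4, 11.4, 10.3 and 13.6. In cycling ones stromal markers stood at 21.5, 18.1, 17.3 and 17.5. The make-up of the non-cycling barcodes thus differed between libraries, and its part in these ratios was not tested.

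**Figure D4:**
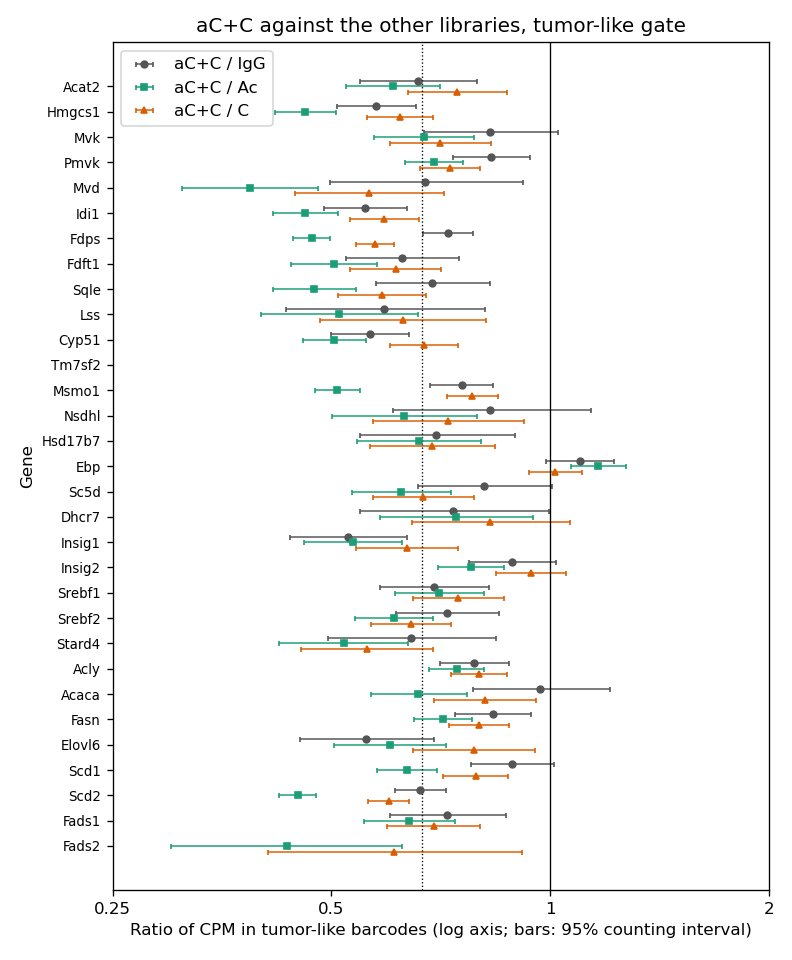
Ratio of CPM in tumor-like barcodes of aC+C to IgG, Ac and C (horizontal log axis) for each gene (vertical axis), with 95% counting intervals, a solid line at 1 and a dotted line at 1.5 times lower; genes under 100 UMIs are left out. Most points lie left of the solid line, and Ebp lies at 1.02 to 1.16.

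Tumor-like barcodes of Ac held somewhat more than those of IgG. There 24 of 29 ratios lay above 1 with a median of 1.20, against 50.8% of all genes and a median of 1.00. At least 1.5 times higher were 2 members, Mvd at 1.74 (1.30 to 2.35) and Fdps at 1.54 (1.42 to 1.67), where 1.40% of all genes were. None was lower, as 2.14% of all genes were. Split by cycling, 8 of 20 members were higher in Ac among non-cycling (median 1.33, 2.56% of all genes higher) and 2 of 29 among cycling tumor-like barcodes (median 1.14, 1.70%). Tumor-like barcodes of C had a median ratio of 1.05 to IgG with none of 29 members higher or lower (3.06% and 1.35% of all genes). The same split gave 3 of 19 members higher among non-cycling barcodes of C, Idi1 (1.91), Fdps (1.94) and Acaca (1.86), with a median of 1.25 (2.49% of all genes higher), and none of 29 higher or lower among cycling ones, with a median of 0.973 (3.27% and 1.70%). The non-cycling ratios all rest on the same 47 barcodes of IgG, in which stromal markers stood highest, as given above.

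In macrophages the Ac and C libraries stood above IgG and aC+C. Against IgG, 7 of 26 members were higher in Ac with a median of 1.26 (3.25% of all genes higher), and 5 of 24 were higher in C with a median of 1.20 (3.04% of all genes). Sqle stood at 8.10, 18.5, 13.2 and 7.74 CPM, so that Ac was at 2.29 times IgG (1.64 to 3.26) and C at 1.63 times (1.15 to 2.36). Stard4 stood at 9.88, 17.4, 15.6 and 11.6 CPM and Fasn at 7.90, 12.8, 12.3 and 8.36 CPM. Those 3 genes were past 1.5 times in both libraries; Hmgcs1 (1.58), Fdft1 (1.67), Acat2 (1.55) and Sc5d (1.52) were past it in Ac, and Mvk (1.66) and Fdps (1.53) in C. The Acat2 interval reached 0.952. Cycling barcodes made up 1.91%, 4.38%, 3.64% and 3.19% of the macrophage gate. The neutrophil markers S100a8, S100a9, Csf3r and Retnlg summed in it to 1.81, 1.37, 4.73 and 2.29 UMIs per 10000. The part of either in these ratios was not tested.

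Macrophages of aC+C had a median ratio of 0.963 to IgG with none of 24 members higher or lower (3.44% and 2.65% of all genes). Against Ac, 7 of 28 members were lower in them (median 0.726, 2.38% of all genes lower), led by Sqle at 0.418 (0.335 to 0.520) and Elovl6 at 0.483 (0.328 to 0.702). Against C, 4 of 28 were lower, Mvk, Fdps, Sqle and Elovl6 (median 0.796, 2.66% of all genes lower). All 28 ratios lay below 1, where 44.7% of all genes lay above it and their median was 0.982.

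T barcodes showed few differences. Among non-cycling T barcodes, Lss, lanosterol synthase, stood at 2.77, 5.13, 5.09 and 3.69 CPM, which placed it 1.85 times (1.25 to 2.77) and 1.84 times (1.23 to 2.78) above IgG in Ac and C. It was the 1 member of 27 past the fold in Ac (1.10% of all genes higher), and Mvd (1.56) joined it in C (2.20%). In aC+C, Dhcr7, the last enzyme of one branch to cholesterol, was the 1 of 26 members lower, at 8.00 CPM against 12.9 in IgG (0.622, 0.480 to 0.802, 5.24% of all genes lower), with 11.4 CPM in Ac and 9.23 in C. Among cycling T barcodes, none of 25 members was past the fold in Ac (0.677% of all genes higher, 2.44% lower) or in C (2.24% and 0.861%), and Acaca (0.656) and Elovl6 (0.630) were lower in aC+C (5.94% of all genes). The median gene ratio of aC+C to IgG was 0.926 in non-cycling and 0.937 in cycling T barcodes, so small downward ratios of members there lie close to those of all genes. Against Ac, Scd2 was lower in aC+C in both non-cycling (0.656, 0.566 to 0.758) and cycling T barcodes (0.632, 0.539 to 0.741), joined in the former by Mvk (0.636), which made 2 of 27 and 1 of 24 members (2.41% of all genes lower in each). Against C, Mvd was lower in non-cycling T barcodes (0.638, 1 of 27 members, 6.49% of all genes lower) and no member of 23 in cycling ones (7.79%, and 0.789% of all genes higher).

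In NK barcodes, Idi1 (1.52) and Fdps (1.55) were higher in C among 21 members (1.34% of all genes), none of 19 was past the fold in Ac (0.649% of all genes higher, 1.26% lower), and Msmo1 (1.59, 1.15 to 2.18) was the 1 of 17 higher in aC+C (2.80%). In NK barcodes of aC+C, Fdps was lower than in C (0.658, 1 of 18 members, 2.05% of all genes), and no member of 18 was past the fold against Ac (2.62% of all genes higher, 1.70% lower). The 3 tumor markers summed to 0.602 UMIs per 10000 in NK barcodes of aC+C and to 0.00419 to 0.048 in the other libraries. Among non-cycling NK barcodes, a split added after the data were seen, they stood at 0.0508 in aC+C against 0.00526 to 0.0451, and Msmo1 was at 1.59 times IgG (1.10 to 2.28). Msmo1 stood in all NK barcodes at 14.4, 15.6, 16.1 and 22.9 CPM. Dendritic barcodes of aC+C had less Idi1 than those of IgG (0.397, 0.257 to 0.598) and less Acly (0.575, 0.375 to 0.871), 2 of 6 members with enough UMIs, where 8.32% of all genes were lower. All 4 B cell markers were detected in dendritic barcodes of each library, at 0.588, 0.868, 0.682 and 3.09 UMIs per 10000, so aC+C held the most, and their part in these ratios was not tested. Dendritic barcodes of C had 1.61 times the Scd2 of IgG (1.08 to 2.41), the 1 of 8 members past the fold (3.06% of all genes higher). Against Ac, 4 of 8 members were lower in dendritic barcodes of aC+C, Idi1 (0.447), Fdps (0.515), Cyp51 (0.616) and Acly (0.623), where 4.51% of all genes were, and against C it was 1 of 4, Fdps (0.497), where 7.09% were. Stromal barcodes of C had more Cyp51 (2.12, 1.28 to 3.69), Fdps (1.82) and Hmgcs1 (1.52) than those of IgG, 3 of 11 members (5.59% of all genes), and those of aC+C had less than those of C for 6 of 11 members (4.82%), with Cyp51 at 0.331 (0.190 to 0.547) and Msmo1 at 0.352. These gates held 32 to 120 barcodes per library, and intervals do not cover differences between barcodes.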

How the data were processed

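Each deposited matrix held UMI counts, neither normalized nor filtered for cells, and listed 6794880 barcodes; the deposited barcode and gene lists (other: names) gave its columns and rows. Per the submitters' processing notes the authors used Cell Ranger 2.1.1 and mm10, while the file headers name software 3.0.2. Per the labels' protocols, reagents were of version v2, although the number of barcodes is that of the later v3 list. For the annotation release and the strand setting: not given in the sources used here. UMI counts correct for amplification duplicates, and free RNA in a droplet is counted with the cell.

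Libraries held 61519049, 65973242, 75665201 and 75067320 UMIs (IgG, Ac, C, aC+C), of which 3.58% to 4.99% lay in barcodes of 1 to 50 UMIs. Barcodes with at least 1000 UMIs and at most 10% mitochondrial UMIs were kept, and no doublets were removed; removing 94 to 142 per library by Scrublet score (scanpy 1.11.5) was an alternative. Gates needed at least 3 marker UMIs and, per 10000 UMIs, 5 for T, NK, stromal and tumor-like, 10 for macrophage and 6 for dendritic barcodes, with limits on markers of other gates; Trac, Trbc1 and Trbc2 were not used. These thresholds were set after marker values were seen, and the members and gene lists were chosen with earlier results of these data known. Of the markers listed for the gates, Lyz2, Apoe and Ly6c2 for macrophages were also not used. Nor were Krt8, Krt18, Krt19, S100a6 and Cdkn2a for tumor-like barcodes, and their levels in that gate are not given here.

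Gates were compared on counts summed per library with edgeR 4.0.16 (quasi-likelihood test, TMM scaling, filterByExpr, library as block, 1 sum per gate in each of 4 libraries, Benjamini-Hochberg over all genes tested). The 4 libraries carry different labels, so p-values measure the spread of a gate difference over these 4 libraries. Gates were set by markers, so marker genes enter the counts of all genes. Libraries were compared without a test, by ratios of CPM with exact conditional binomial intervals. Single levels carry exact Poisson intervals. Both are 95% intervals of counting error only. All 31 members are accounted for, and up to 3 genes of each related list with the largest change among those past the threshold could be named. The model fit was tested on simulated counts. Alternatives were DESeq2 1.42.0, its size factors, no low-count filter, no block, 1 fit of all gates, each library left out, other barcode filters, thinning and other scalings.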

Additional observations from a re-analysis of the deposited data

Results flagged for a closer look

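Ratios of 4 member genes (Fasn, Cyp51, Pmvk and Msmo1), in 6 results, pointed in opposite directions in different gates of the same pair of libraries, with both counting intervals clear of 1. These differences were not tested, since each gate rests on 1 library per group. Fasn, fatty acid synthase, was 1.61 times higher in Ac than in IgG in macrophages (1.14 to 2.34) and at 0.804 times in non-cycling T barcodes (0.689 to 0.938). Cyp51 was at 2.12 times IgG in stromal barcodes of C (1.28 to 3.69) and at 0.843 times in tumor-like ones (0.739 to 0.962). Pmvk was at 1.45 times C in dendritic barcodes of aC+C (1.17 to 1.82) and at 0.587 times in stromal ones (0.381 to 0.887).

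Msmo1, a sterol demethylase, was flagged in all comparisons of aC+C, where NK barcodes lay above the other library and mesenchymal ones below it. Against IgG its ratio was 1.59 in NK and 0.756 in tumor-like barcodes, and against Ac it was 1.47 and 0.510. Against C it was 1.43 in NK and 0.352 in stromal barcodes. These 3 results share the NK barcodes of aC+C, which numbered 237. In non-cycling NK barcodes alone the ratio was 1.59 to IgG (1.10 to 2.28), 1.34 to Ac (0.935 to 1.91) and 1.38 to C (0.966 to 1.95), so that the intervals against Ac and C included 1.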

How the results depend on the processing

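With every barcode thinned to 1000 UMIs, far fewer UMIs and genes could be tested: edgeR called 1075 genes higher and 937 lower in cycling T (members 5 and 0), 875 and 877 in NK (members 1 and 1), 2572 and 2485 in macrophages, 662 and 805 in dendritic barcodes (members 3 and 2), 619 and 956 in stromal ones (members 1 and 1), and 140 and 160 in tumor-like ones (members 0 and 0). Thinning reversed Sc5d in cycling T (-0.39), Srebf1 in NK (-0.016) and Srebf2 in stromal barcodes (0.16), and none of these 3 passed the test there. DESeq2 called 1793 genes and 1 member lower in cycling T, and 2 members higher and 4 lower in NK. It called 36% and 34.9% of all genes higher or lower there. With all gates in 1 fit, 3 members rose in NK and 0 fell in tumor-like barcodes, with 37.8% and 41.1% of all genes called. Among CD8 T barcodes 0 members fell with cycling. Leaving out 1 library at a time gave 13 to 14 members higher and 2 to 3 lower in cycling T, 3 to 4 higher and 4 to 10 lower in NK, 13 to 15 and 4 to 6 in macrophages, 8 to 9 and 3 to 7 in dendritic, 4 to 5 and 6 to 8 in stromal, and 11 to 13 and 0 to 1 in tumor-like barcodes. For cycling T, NK and macrophages these fits called 44.9% to 47.2%, 38.9% to 45.7% and 69.1% to 71.3% of all genes higher or lower. For dendritic, stromal and tumor-like barcodes it was 38.2% to 43.6%, 59% to 62.1% and 31.4% to 37.3%. Fits with no replicate block, that is without library as a block, gave 13 members higher and 2 lower in cycling T, 4 and 7 in NK, 16 and 6 in macrophages, 8 and 8 in dendritic, 6 and 8 in stromal and 10 and 1 in tumor-like barcodes. In the same order they called 38.6%, 41.2%, 75%, 49.2%, 68.3% and 43.2% of all genes higher or lower. The main fits called 52.2%, 47.6%, 74.2%, 47.4%, 66.1% and 42.3%. Of 1392 alternative fold changes of single members, 1254 kept their direction and call, 135 kept the direction without passing and 3 reversed. Chosen after seeing the data, non-cycling barcodes alone gave 4 members higher and 0 lower in tumor-like against stromal, and cycling against non-cycling NK gave 7 and 0.

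Counts of members past 1.5 times were summed over 7 gates: 10 higher in Ac and 13 in C against IgG, and in aC+C 15 lower against IgG, 36 against Ac and 25 against C. The share of all genes past the fold differed by gate and is given by gate above. It was not summed, so these sums compare settings and do not set members against all genes. Gates with doubled marker minimums gave 17 higher in Ac, 1 lower in C and 1 higher in aC+C against C. A fold of 2 left 1 higher in Ac, 1 higher in C, 1 lower and 0 higher in aC+C against IgG, 10 lower against Ac and 4 lower against C. Scaling by the median gene left 9 lower in aC+C against IgG and 1 higher against C. The mean over barcodes gave 2 lower in C, and 0 higher in aC+C against IgG. A mitochondrial maximum of 5% gave 1 higher in aC+C against Ac and 2 against C, a 5% background subtraction gave 1 higher against Ac, and a minimum of 5000 UMIs gave 1 higher against C. Where not named above, the cause of these changes was not tested. Stromal and dendritic barcodes are few, and a member under 100 UMIs there was not compared.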
